A study of Mus musculus with 4 samples.

Results

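The genes described here are markers of the non-muscle cells that wrap and scaffold the heart, namely cardiac fibroblasts, valve mesenchyme and the epicardium. They were chosen by name, with earlier results of these data known, from a list of 35 symbols. Of these, 33 are rows of the deposited table of 14936 genes. S100a4, a calcium-binding protein gene used as a fibroblast marker, is not a row of that table and was not analysed here. C3orf58 is a human symbol, and RefSeq lists the gene's mouse counterpart as Dipk2a with the synonym 1190002N15Rik. That row was not counted as a member. The 33 members were ordered by role into 13 fibroblast genes, 4 genes of valve mesenchyme and 16 genes of the epicardium. Many of them are used in more than a single cell type, so the order is a convenience.

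RNA came from hearts of 4 mouse embryos at E18.5, on a C57BL/6 background, and poly(A) RNA was sequenced in bulk. Embryos 51 and 54 carried 1 Nkx2.5-Cre allele (Cre/WT) on Adar1 (flox/flox), and embryos 47 and 50 were Adar1 (flox/flox) with no Cre allele (WT/WT). All 4 hearts thus carried both floxed alleles, and only the Cre-positive hearts carried Cre, so effects of the Cre allele and of targeting Adar1 cannot be told apart. The labels do not say which heart cells had recombined. Adar, the gene targeted, stood at 195 and 213 CPM in Cre-positive hearts 51 and 54, against 30.2 and 35.7 CPM in Cre-negative hearts 47 and 50. The floxed exons are not named in the labels, so a level over the whole gene checks nothing about the deletion, and here it was higher, not lower, in the hearts labelled as the knockout. Groups were taken from the sample titles, because the genotype given for embryos 51 and 54 combines wildtype with KO. Every direction below is that of the libraries so labelled. CPM is a gene's reads scaled to the effective size of its library. The listed genes held 8593443 and 8444488 reads in the Cre-positive hearts and 8998872 and 7457103 reads in the Cre-negative hearts, so that 1 read was worth between 0.109 and 0.138 CPM.

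The epicardium is the mesothelial sheet on the heart's surface. During development some of its cells lose their epithelial junctions, enter the muscle wall and become fibroblasts and mural cells, under signals that include platelet-derived growth factors, transforming growth factor beta and retinoic acid. Valve mesenchyme arises largely from endocardial cells by a similar transition, and builds the leaflets from matrix. The fetal heart uses these cells as sources of collagen and of growth signals for the muscle.

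Of the 33 members, 15 were lower and 2 higher in Cre-positive hearts, at a Benjamini-Hochberg adjusted p under 0.05 over the 14869 genes tested with limma. Over all genes tested, 31.9% were called, 14.2% lower and 17.8% higher. Of those calls, 55.6% were higher, and 43.2% and 44.4% with upper-quartile and quantile scaling, which called 18 members lower and 2 higher. The median log2 fold change of the members, Cre-positive minus Cre-negative on the log2(CPM + 1) scale, was -0.63, against -0.01 over all genes. Log2 fold changes were negative for 28 members and positive for 5. Both Cre-positive hearts lay below both Cre-negative hearts for 24 members and above them for 3, and the groups overlapped for 6. Over all genes tested, the groups did not overlap for 72.2%, with the Cre-positive hearts lower for 36.3% and higher for 36%. All 33 members passed the filter of 1 CPM in 2 hearts. Because the members were chosen with earlier results known, their shares beside all genes are a description and not a test. In bulk RNA, fewer cells of a type and less RNA per cell cannot be told apart, and this holds for every value below. Without Cre-negative heart 47 or without Cre-negative heart 50, nearly all member calls were lost, and so were most calls over all genes. The members' median log2 fold change was then -0.51 and -0.79. It was -0.46 without Cre-positive heart 51 and -0.57 without Cre-positive heart 54.

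**Figure D1:**
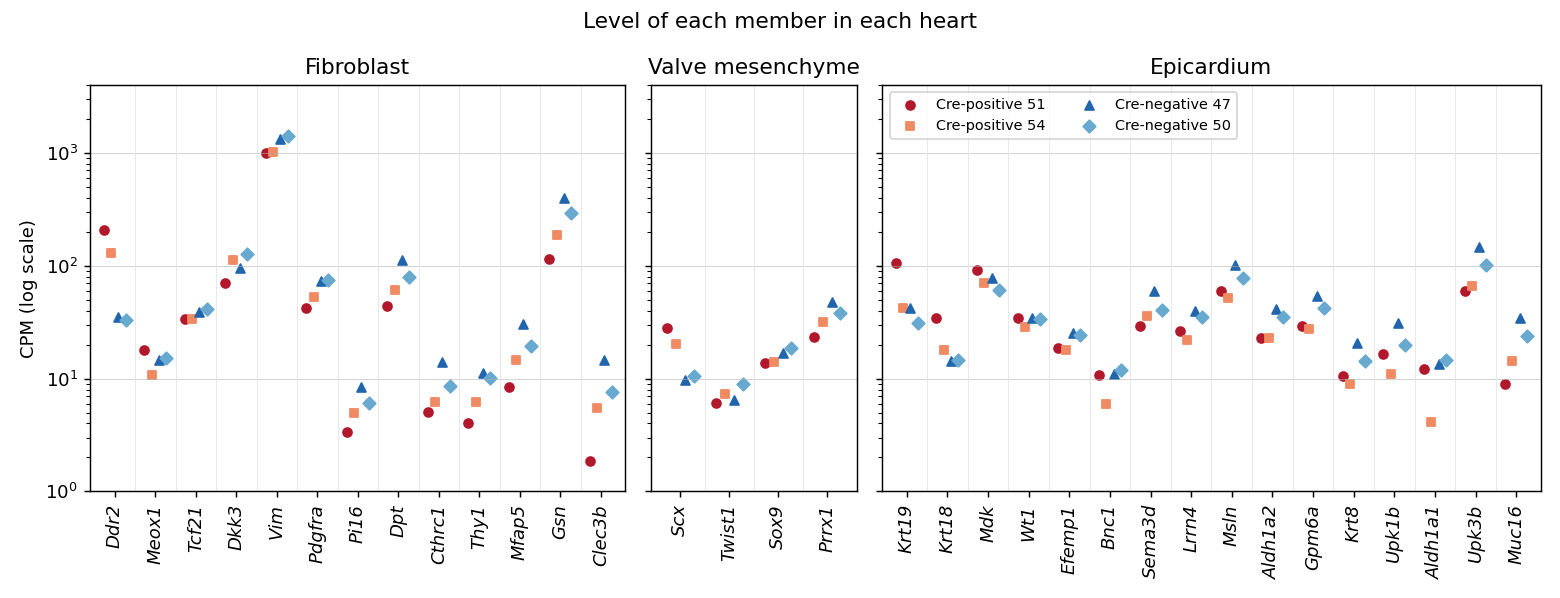
CPM of each of the 33 members in each heart, on a log axis, by role, with red and orange symbols for Cre-positive hearts 51 and 54 and blue symbols for Cre-negative hearts 47 and 50. Most members have the red and orange symbols below both blue ones, while Ddr2 and Scx have them above.

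**Figure D2:**
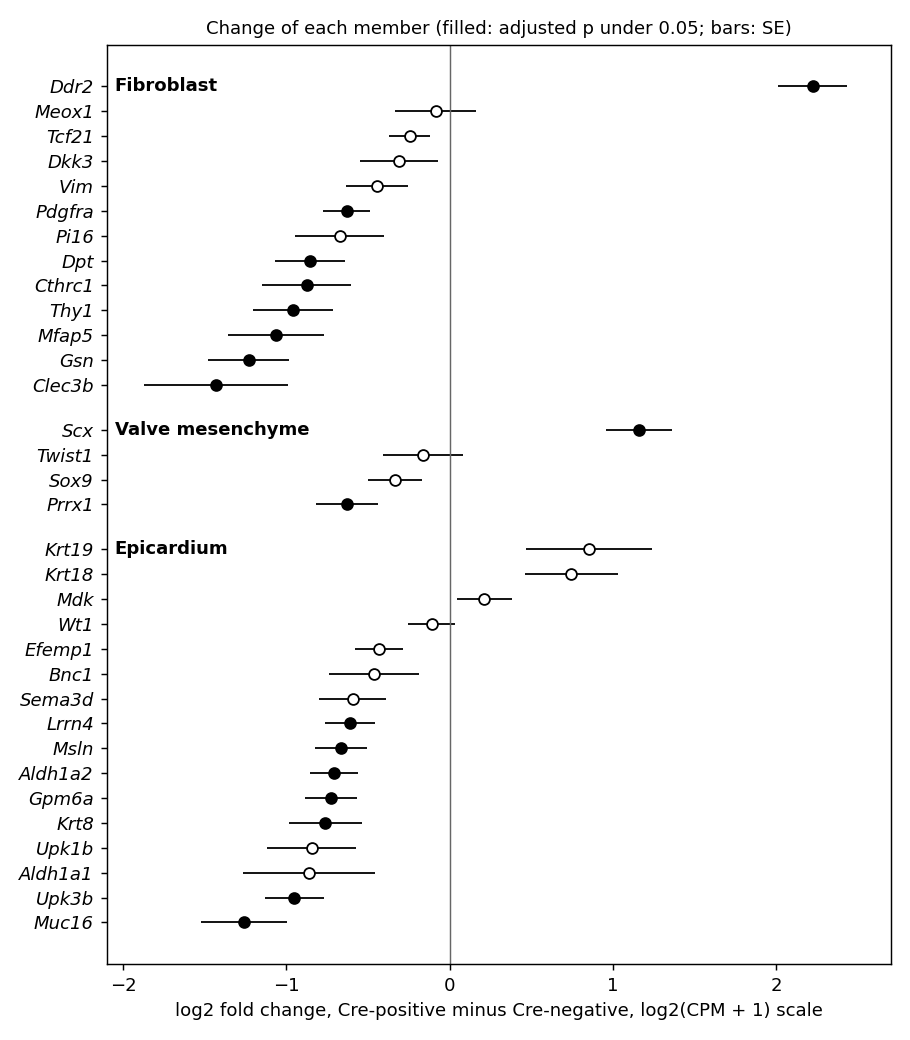
Log2 fold change of each member, Cre-positive minus Cre-negative, with limma's SE as bars. Filled points have an adjusted p under 0.05 over all genes, and lie below 0 for 15 members and above 0 for Ddr2 and Scx.

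Among the fibroblast genes, 7 of 13 fell, 1 rose and 5 did not pass the test. That is 61.5% called, against 31.9% over all genes tested. The median log2 fold change of the 13 genes was -0.67. The collagen receptor gene Ddr2 went the other way from its group and rose most of all members. Ddr2 encodes a receptor tyrosine kinase that is switched on by fibrillar collagen (chr1:169972307-170110762, GRCm38, GENCODE M21). It stood at 206 and 129 CPM in Cre-positive hearts 51 and 54, against 35.1 and 33.2 CPM in Cre-negative hearts 47 and 50. The lower of the Cre-positive hearts was thus still far above both Cre-negative hearts, a 4.91-fold ratio of group means. The log2 fold change was 2.22 (SE 0.21, adjusted p = 0.000567). Ddr2 was also the member whose call held with each heart left out in turn, at log2 fold changes between 1.89 and 2.56. Its adjusted p lay between 3.09e-19 and 0.0375 over the 11 alternatives run. An antisense gene, 3110045C21Rik, overlaps Ddr2, and the strand setting of the counting is not given in the sources used here. That gene held 1.31 and 2.61 CPM in Cre-positive hearts 51 and 54, against 2.76 and 1.94 CPM in Cre-negative hearts 47 and 50.

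The fibroblast genes that fell were Pdgfra, Gsn, Dpt, Thy1, Mfap5, Clec3b and Cthrc1. Pdgfra encodes the receptor for platelet-derived growth factor A and is a standard mark of cardiac fibroblasts. It stood at 41.9 and 53.1 CPM in Cre-positive hearts 51 and 54, against 73.1 and 74.0 CPM in Cre-negative hearts 47 and 50. Its log2 fold change was -0.63 (SE 0.14, adjusted p = 0.0172). Gsn, which encodes the actin-severing protein gelsolin, stood at 114 and 186 CPM in the Cre-positive hearts and at 401 and 293 CPM in the Cre-negative hearts. Its groups did not overlap, though the hearts within each group differed. The change was -1.23 on the log2 scale (SE 0.25, limma adjusted p = 0.0115), and between -1.58 and -0.88 with a heart left out. Dpt encodes dermatopontin, a small matrix protein that binds decorin. It had 43.7 and 61.1 CPM in the Cre-positive hearts and 113 and 79.1 CPM in the Cre-negative hearts, a change of -0.86 on the log2 scale (SE 0.21, adjusted p = 0.0236). Thy1, a glycolipid-anchored surface protein gene, had 4.03 and 6.17 CPM in the Cre-positive hearts, against 11.3 and 10.1 CPM in the Cre-negative hearts, and fell by 0.96 (SE 0.25, adjusted p = 0.0259).

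The microfibril gene Mfap5 and the plasminogen-binding lectin gene Clec3b mark the fibroblasts of the adventitia in many organs. Mfap5 averaged 11.5 ± 4.24 CPM in Cre-positive hearts and 24.9 ± 7.85 CPM in Cre-negative hearts (SD, n = 2 each), a change of -1.06 on the log2 scale (SE 0.30, limma adjusted p = 0.0330). Clec3b had the largest fall of the members, and the lowest read count of any member in a single heart. It stood at 1.85 and 5.46 CPM in Cre-positive hearts 51 and 54, against 14.5 and 7.61 CPM in Cre-negative hearts 47 and 50, and 1.85 CPM was 17 reads. Its log2 fold change was -1.43 (SE 0.44, adjusted p = 0.0456), and -0.84 without Cre-positive heart 51, when the call was lost. Cthrc1, a secreted collagen-triple-helix protein gene that activated fibroblasts make, had 5.01 and 6.17 CPM in the Cre-positive hearts and 14.1 and 8.57 CPM in the Cre-negative hearts. Its log2 fold change was -0.88 (SE 0.27, adjusted p = 0.0473), and -0.54 without Cre-negative heart 47, when the call was lost. Of the 8 calls among fibroblast genes, 3 held without Cre-positive heart 51, 1 without Cre-negative heart 47 and 1 without Cre-negative heart 50.

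The transcription factor gene that defines the fibroblast lineage moved little. Tcf21, needed for epicardial cells to become fibroblasts, stood at 33.7 and 34.1 CPM in the Cre-positive hearts and at 39.1 and 41.6 CPM in the Cre-negative hearts. The groups did not overlap, but the change of -0.24 on the log2 scale (SE 0.13, adjusted p = 0.173) did not pass the test. Vim encodes vimentin, the intermediate filament of mesenchymal and endothelial cells, and had the highest level of all members per length, at 209 and 213 CPM per kilobase of exon in the Cre-positive hearts and 280 and 295 in the Cre-negative hearts. Its log2 fold change was -0.45 (SE 0.19, adjusted p = 0.112). Meox1, a homeobox gene of activated fibroblasts, had 18.1 and 10.8 CPM in the Cre-positive hearts, on either side of 14.6 and 15.2 CPM in the Cre-negative hearts. Pi16, a peptidase inhibitor gene of adventitial fibroblasts, and Dkk3, a secreted Dickkopf family gene, had log2 fold changes of -0.67 (adjusted p = 0.0989) and -0.31 (adjusted p = 0.348). The ratio of Pdgfra to Tcf21 was 1.24 and 1.56 in the Cre-positive hearts, against 1.87 and 1.78 in the Cre-negative hearts, and this difference between the genes was not tested.

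**Figure D3:**
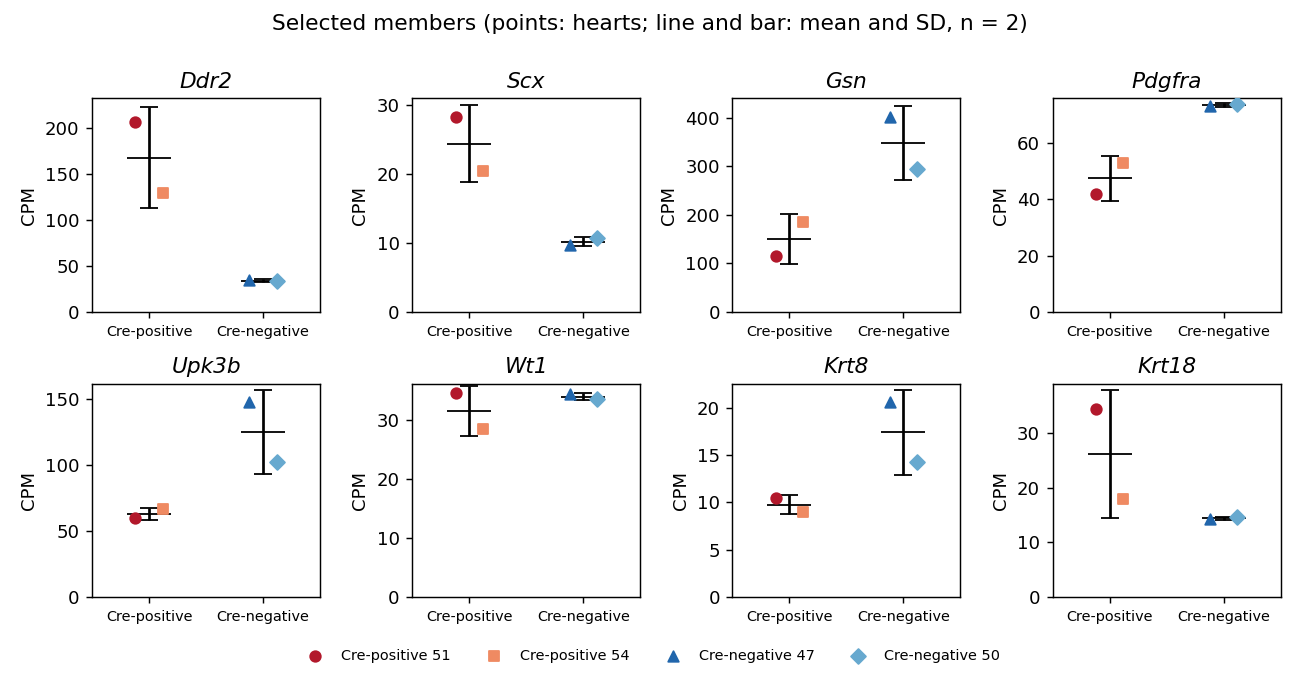
CPM of 8 members in each heart, with the group mean and SD (n = 2) as black lines and bars and each axis from 0. Ddr2 and Scx are higher in the Cre-positive hearts, Gsn, Pdgfra, Upk3b and Krt8 are lower, and Wt1 overlaps between the groups, while Krt18 did not pass the test.

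Of the 4 genes grouped as valve mesenchyme, 1 rose, 1 fell and 2 did not pass the test. That is 50% called in a list of only 4 genes, against 31.9% over all genes tested. Scx encodes scleraxis, a basic helix-loop-helix factor of tendon and of heart valve precursors (chr15:76457452-76459458). It stood at 28.3 and 20.4 CPM in Cre-positive hearts 51 and 54, against 9.77 and 10.6 CPM in Cre-negative hearts 47 and 50. The groups did not overlap and the log2 fold change was 1.16 (SE 0.20, adjusted p = 0.00699). Prrx1, a homeobox gene of mesenchyme, moved the other way, with 23.3 and 31.5 CPM in the Cre-positive hearts and 47.6 and 37.8 CPM in the Cre-negative hearts. Its log2 fold change was -0.63 (SE 0.19, adjusted p = 0.0421). Sox9, which is needed for valve and cartilage matrix, had 13.8 and 13.9 CPM in the Cre-positive hearts and 16.8 and 18.7 CPM in the Cre-negative hearts (adjusted p = 0.16). Twist1, a factor of cushion mesenchyme, overlapped between the groups (adjusted p = 0.627). Neither the Scx nor the Prrx1 call held without Cre-negative heart 47 or without Cre-negative heart 50, and the Prrx1 call was also lost without Cre-positive heart 51.

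Among the 16 epicardial genes, 7 fell, 0 rose and 9 did not pass the test, with a median log2 fold change of -0.64. The 43.8% called were all falls, against 14.2% of all genes called lower and 31.9% called in either direction. DESeq2 called 1 of the 16 genes higher. The genes that fell were Upk3b, Muc16, Msln, Aldh1a2, Gpm6a, Lrrn4 and Krt8. Upk3b encodes uroplakin 3b, a membrane protein of mesothelium. It stood at 60.0 and 66.5 CPM in Cre-positive hearts 51 and 54, against 148 and 102 CPM in Cre-negative hearts 47 and 50, a change of -0.95 on the log2 scale (SE 0.18, adjusted p = 0.00935). The 2 Cre-positive hearts were close together and the 2 Cre-negative hearts were not. Its partner gene Upk1b, a tetraspanin uroplakin, had 16.4 and 10.9 CPM in the Cre-positive hearts and 31.3 and 19.8 CPM in the Cre-negative hearts, just outside the threshold at an adjusted p of 0.0507. Muc16, which encodes a large membrane mucin, had 9.03 and 14.4 CPM in the Cre-positive hearts and 34.6 and 23.8 CPM in the Cre-negative hearts. It had the largest fall of the epicardial genes, a change of -1.26 on the log2 scale (SE 0.26, adjusted p = 0.0128). Msln encodes mesothelin, the surface protein that binds this mucin, and had 60.0 and 52.2 CPM in the Cre-positive hearts and 102 and 78.4 CPM in the Cre-negative hearts (log2 fold change -0.66, SE 0.16, adjusted p = 0.0192).

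Aldh1a2 encodes the dehydrogenase that makes retinoic acid in the epicardium (chr9:71215789-71296243). It had 23.0 and 22.9 CPM in the Cre-positive hearts, against 41.5 and 35.0 CPM in the Cre-negative hearts. The Cre-positive hearts were nearly equal and both below the others, with a change of -0.71 on the log2 scale (SE 0.15, adjusted p = 0.0122). Aldh1a1, a related dehydrogenase gene, was low in heart 54 alone, with 12.1 and 4.16 CPM in Cre-positive hearts 51 and 54 and 13.3 and 14.5 CPM in Cre-negative hearts 47 and 50 (adjusted p = 0.140). Gpm6a, a four-pass membrane glycoprotein gene also used by neurons, had 29.5 and 27.5 CPM in the Cre-positive hearts and 54.4 and 42.0 CPM in the Cre-negative hearts. Lrrn4, a leucine-rich repeat gene of mesothelium, had 26.4 and 22.0 CPM in the Cre-positive hearts and 39.7 and 35.1 CPM in the Cre-negative hearts. Neither gene's groups overlapped, and the log2 fold changes were -0.73 (adjusted p = 0.0149) and -0.61 (adjusted p = 0.0242).

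The nuclear regulators of the epicardium did not pass the test. Wt1 encodes the zinc finger factor by which epicardium is most often recognised. It stood at 34.6 and 28.6 CPM in Cre-positive hearts 51 and 54, against 34.5 and 33.6 CPM in Cre-negative hearts 47 and 50, and the groups overlapped (log2 fold change -0.11, SE 0.15, adjusted p = 0.586). Bnc1, the zinc finger gene basonuclin, had 10.7 and 5.94 CPM in the Cre-positive hearts and 10.9 and 11.9 CPM in the Cre-negative hearts (adjusted p = 0.229). The ratio of Upk3b to Wt1 was 1.73 and 2.32 in the Cre-positive hearts, against 4.28 and 3.05 in the Cre-negative hearts. The ratio of Aldh1a2 to Wt1 was 0.664 and 0.801 in the Cre-positive hearts, against 1.203 and 1.041 in the Cre-negative hearts. Both ratios were lower in each Cre-positive heart than in either Cre-negative heart, and no test of the differences between these genes was made. Sema3d, a guidance molecule gene, and Efemp1, a fibulin gene, had log2 fold changes of -0.59 (adjusted p = 0.0642) and -0.43 (adjusted p = 0.0609). Mdk, which encodes the growth factor midkine, overlapped between the groups (log2 fold change 0.21, adjusted p = 0.361). Of the 7 epicardial calls, 6 held without Cre-positive heart 51, 5 without Cre-positive heart 54, 0 without Cre-negative heart 47 and 1, that of Upk3b, without Cre-negative heart 50.

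The keratins form the filaments of simple epithelia as pairs of a type I and a type II chain. Their log2 fold changes differed in sign, and only that of Krt8 passed the test. Krt8, the type II chain gene (chr15:101996698-102004482), had 10.4 and 9.02 CPM in Cre-positive hearts 51 and 54, against 20.6 and 14.2 CPM in Cre-negative hearts 47 and 50. It fell by 0.76 (SE 0.22, adjusted p = 0.0386), a call that was lost with each heart left out in turn and with DESeq2. Krt18, the type I partner gene close by on the other strand (chr15:102028180-102032027), had 34.5 and 17.9 CPM in the Cre-positive hearts and 14.3 and 14.7 CPM in the Cre-negative hearts. Both Cre-positive hearts were above both others, heart 51 most, and the change of 0.75 on the log2 scale (SE 0.28, adjusted p = 0.0835) did not pass the test. It passed with DESeq2 and without Cre-positive heart 54. Krt19, another type I chain gene, had 105 and 41.8 CPM in the Cre-positive hearts and 42.3 and 31.3 CPM in the Cre-negative hearts, so heart 51 alone stood out (adjusted p = 0.128). The ratio of Krt18 to Krt8 was 3.30 and 1.99 in the Cre-positive hearts, against 0.693 and 1.03 in the Cre-negative hearts. No test of the difference between these 2 genes was made. Krt8 and Krt18 have processed copies elsewhere in the genome, and how reads shared with such copies were counted is not given in the sources used here.

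**Figure D4:**
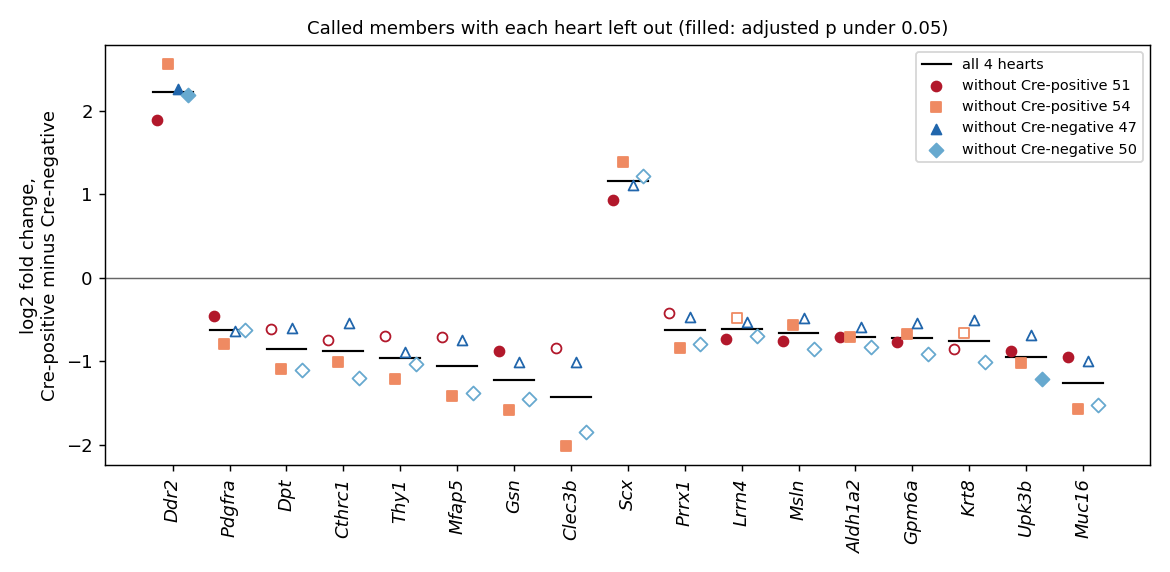
Log2 fold change, Cre-positive minus Cre-negative, of the 17 called members with all 4 hearts (black line) and with each heart left out, filled where the adjusted p stayed under 0.05. No called member changes sign, Ddr2 is filled in all 4 cases, and the blue symbols of nearly all other members are open.

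Promoter windows are shown for the member that rose most and for every epicardial member that fell and has one in the RefSeq table. RefSeq windows of the 250 bases before the start (GRCm38.p6) were found for 20 of the 33 members, 24 windows in all. Each was searched on both strands for GGAATG, the core bound by TEAD factors, for CAGCTG, an E-box, and for the core of the interferon-stimulated response element (a GAAA pair with any 2 bases between). GGAATG was in 5 of the 24 windows, those of Upk3b, Lrrn4, Gpm6a, Prrx1 and Aldh1a1, against 12.6% of the 32851 windows of all genes. Of these 5 genes the first 4 fell and Aldh1a1 did not pass the test. CAGCTG was in 3 windows, that of Dpt and 2 of Gsn, against 13% of all, and the interferon core was in 1, that of Gpm6a, against 2.98% of all. The Ddr2 window held none of the 3. Of the 7 epicardial members that fell, 6 have a window, 7 windows in all, and 3 of these held GGAATG while 4 held no match. The windows are those of Ddr2 at chr1:170088945-170089194 (minus strand), Upk3b at chr5:136038246-136038495 (plus strand), Lrrn4 at chr2:132880863-132881112 (minus strand), Aldh1a2 at chr9:71215539-71215788 (plus strand), Muc16 at chr9:18674604-18674853 (minus strand) and Krt8 at chr15:102004343-102004592 (minus strand). Gpm6a has an upstream start at chr8:54779184-54779433 (plus strand) and a downstream start at chr8:54954478-54954727 (plus strand). RefSeq and GENCODE M21 differ in some starts. The Ddr2 window lies inside the GENCODE gene, downstream of its 5′ end, and the upstream Gpm6a window lies far outside the GENCODE gene, while the downstream one is next to its start. Letters run 5′ to 3′ on the gene's strand, with capitals at the matches. A match is a description of the letters and not a site.
Ddr2: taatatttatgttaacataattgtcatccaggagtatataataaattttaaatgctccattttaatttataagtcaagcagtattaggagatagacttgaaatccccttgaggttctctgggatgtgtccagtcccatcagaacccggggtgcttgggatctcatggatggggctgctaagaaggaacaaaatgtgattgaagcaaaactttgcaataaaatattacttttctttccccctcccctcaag
Upk3b: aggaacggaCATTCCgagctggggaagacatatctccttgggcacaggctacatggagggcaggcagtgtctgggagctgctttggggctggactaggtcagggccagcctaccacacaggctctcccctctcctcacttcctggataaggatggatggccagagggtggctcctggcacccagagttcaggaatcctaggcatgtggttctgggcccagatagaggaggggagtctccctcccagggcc
Lrrn4: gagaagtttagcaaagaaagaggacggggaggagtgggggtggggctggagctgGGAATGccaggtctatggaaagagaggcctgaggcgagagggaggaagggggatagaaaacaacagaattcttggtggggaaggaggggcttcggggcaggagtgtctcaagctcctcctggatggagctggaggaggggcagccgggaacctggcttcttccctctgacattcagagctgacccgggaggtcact
Gpm6a upstream start: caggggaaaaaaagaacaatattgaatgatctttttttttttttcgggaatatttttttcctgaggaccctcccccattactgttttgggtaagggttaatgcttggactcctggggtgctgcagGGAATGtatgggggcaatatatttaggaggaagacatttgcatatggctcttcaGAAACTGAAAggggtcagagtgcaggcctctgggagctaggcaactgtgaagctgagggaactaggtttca
Gpm6a downstream start: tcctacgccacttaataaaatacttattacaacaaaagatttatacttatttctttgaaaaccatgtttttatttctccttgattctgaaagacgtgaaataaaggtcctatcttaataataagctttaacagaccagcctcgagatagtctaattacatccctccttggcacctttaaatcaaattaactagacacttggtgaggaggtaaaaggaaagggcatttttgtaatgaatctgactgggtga
Aldh1a2: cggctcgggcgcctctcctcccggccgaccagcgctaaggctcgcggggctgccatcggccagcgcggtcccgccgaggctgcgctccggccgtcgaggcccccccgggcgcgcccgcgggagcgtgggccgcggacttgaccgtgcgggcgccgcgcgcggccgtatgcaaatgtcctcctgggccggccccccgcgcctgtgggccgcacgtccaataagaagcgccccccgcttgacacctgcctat
Muc16: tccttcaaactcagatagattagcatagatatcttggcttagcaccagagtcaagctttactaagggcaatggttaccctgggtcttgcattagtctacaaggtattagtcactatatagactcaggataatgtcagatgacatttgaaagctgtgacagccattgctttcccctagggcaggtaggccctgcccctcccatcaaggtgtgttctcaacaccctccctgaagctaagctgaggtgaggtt
Krt8: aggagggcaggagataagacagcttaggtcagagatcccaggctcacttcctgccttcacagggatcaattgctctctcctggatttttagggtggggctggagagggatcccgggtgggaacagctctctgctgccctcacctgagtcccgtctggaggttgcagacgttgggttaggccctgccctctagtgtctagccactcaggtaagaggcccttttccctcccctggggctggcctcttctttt

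Lists of other genes of the same cells and signals gave the setting. Of 16 other fibroblast and matrix genes, 6 fell and 0 rose. All 16 log2 fold changes were negative, their median was -0.51, and edgeR called 4 genes lower and DESeq2 9. Lum, a collagen-binding proteoglycan gene, had 51.9 and 60.5 CPM in the Cre-positive hearts and 107 and 91.7 CPM in the Cre-negative hearts (log2 fold change -0.81, SE 0.14, adjusted p = 0.00634). Cygb, Dcn and Fbln2, which encode cytoglobin, decorin and a fibulin, fell by 0.95, 0.98 and 0.45. The 6 genes that fell are 37.5% of their list, against 14.2% called lower and 31.9% called in either direction over all genes. Of 9 other epicardial and mesothelial genes in the table, 2 fell, namely Nkain4, by 1.06, and Anxa8, an annexin gene, by 1.09, which is 22.2% called. Tbx18, a T-box factor of the epicardium, had 59.3 and 83.1 CPM in the Cre-positive hearts and 60.5 and 48.4 CPM in the Cre-negative hearts (adjusted p = 0.170). Of 11 other genes of valve cushions, 2 rose and 1 fell, which is 27.3% called. Neither of these shares exceeds the 31.9% called in either direction over all genes. The 22.2% were all falls, and 14.2% of all genes were called lower. Tbx20, a T-box factor of endocardium and muscle, rose by 0.71 (SE 0.15, adjusted p = 0.0119), Nfatc1, of the endocardium, rose by 0.51 (adjusted p = 0.0498) and kept that call in 4 of 11 alternatives, and Vcan, the cushion proteoglycan versican, fell by 0.41 (adjusted p = 0.0438). Without Cre-negative heart 47, 0 calls of these 3 lists held, and without Cre-negative heart 50, 1 did, in the fibroblast list.

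Of 20 genes in the table for ligands, receptors and transition factors that act between epicardium, fibroblasts and muscle, 4 rose and 1 fell. These 25% lie below the 31.9% called over all genes, so the count is no result about the list. Tgfb2, the transforming growth factor ligand gene most used in valve and epicardial transitions, had 162 and 157 CPM in the Cre-positive hearts, against 52.5 and 52.0 CPM in the Cre-negative hearts. The hearts of a group were almost equal and the groups lay far apart, and the gene rose by 1.59 on the log2 scale (SE 0.11, adjusted p = 0.000120). Tgfb3, another ligand gene, rose by 0.95 (SE 0.17, adjusted p = 0.00774), and Zeb2, a repressor of epithelial genes, by 0.64 (SE 0.12, adjusted p = 0.00800). Pdgfc, a ligand gene for the receptor that Pdgfra encodes, rose by 0.96 (SE 0.20, adjusted p = 0.0121). Tgfbr3, the co-receptor betaglycan gene that presents the second ligand, fell by 0.68 (SE 0.13, adjusted p = 0.00963). Of these 5 calls, 2 held without Cre-negative heart 47 and 1 without Cre-negative heart 50. Of the retinoic acid receptor genes, Rarg had 16.1 and 15.1 CPM in the Cre-positive hearts and 20.2 and 22.7 CPM in the Cre-negative hearts (log2 fold change -0.44, adjusted p = 0.0755). The log2 fold changes of Rara, Rarb, Rxra and Rxrb lay between -0.12 and 0.06.

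Markers of other cell types differed from list to list. The summed level of the 10 cardiomyocyte markers was 16874 and 25793 CPM in Cre-positive hearts 51 and 54, against 40322 and 35371 CPM in Cre-negative hearts 47 and 50. Of these 10 markers 3 fell. That is 30%, against 14.2% of all genes called lower and 31.9% called in either direction. All 10 log2 fold changes were negative, with a median of -0.81. For 9 of the markers both Cre-positive hearts lay below both Cre-negative hearts, which held for 36.3% of all genes. With quantile normalization 1 marker passed, with edgeR 2 and with DESeq2 7. Of 7 smooth muscle and pericyte markers 3 fell, 42.9% against 14.2% of all genes called lower. The sum of the 7 was 515 and 767 CPM in the Cre-positive hearts, against 1498 and 1325 CPM in the Cre-negative hearts. The 8 endothelial markers had 0 calls with limma, edgeR and DESeq2, and sums of 1096 and 1124 CPM in the Cre-positive hearts, against 1087 and 1366 CPM in the Cre-negative hearts. Of 8 macrophage and leukocyte markers 5 rose and 1 fell, which is 75% called, against 31.9% over all genes. With upper-quartile scaling 3 passed. The 8 summed to 179 and 128 CPM in the Cre-positive hearts, against 116 and 96.3 CPM in the Cre-negative hearts. Without Cre-negative heart 47 or without Cre-negative heart 50, 0 of the cardiomyocyte, smooth muscle or macrophage markers passed the limma test. Of 14 markers of airway and lung epithelium, which also uses keratins, 5 were in the table and 4 fell, of which 1 passed without Cre-negative heart 47 and 1 without Cre-negative heart 50. Scgb3a2, a secretoglobin gene of airway cells, was listed at 0 in both Cre-positive hearts, against 95.3 and 79.9 CPM in the Cre-negative hearts. Cdh1, the epithelial cadherin gene, had 1.63 and 1.90 CPM in the Cre-positive hearts and 5.52 and 4.15 CPM in the Cre-negative hearts, and Epcam and Nkx2-1 were not rows of the table. The 4 airway markers that fell are 80% of the 5 in the table, against 14.2% of all genes called lower. The airway list summed to 6.53 and 4.99 CPM in the Cre-positive hearts, against 110 and 94.7 CPM in the Cre-negative hearts. Scgb3a2 made up most of the Cre-negative sums. The remaining airway marker in the table did not pass the test (log2 fold change 0.48). Both Cre-positive hearts lay above both Cre-negative hearts for that marker. The part of the airway markers in the values of the epicardial genes was not tested. Of 6 skeletal muscle markers, Acta1 was in the table, with 47.4 and 44.4 CPM in the Cre-positive hearts and 44.5 and 37.5 CPM in the Cre-negative hearts, and it did not pass the test. None of 5 liver markers was in the table.

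**Figure D5:**
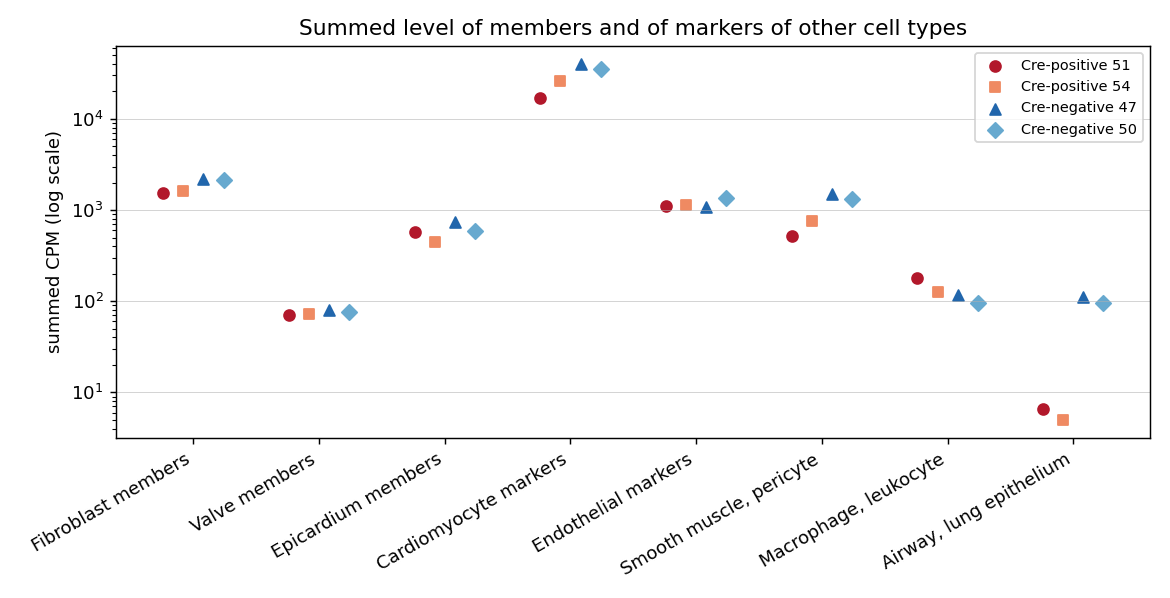
Summed CPM, on a log axis, of the members by role and of fixed marker lists of other cell types, in red and orange for Cre-positive hearts 51 and 54 and in blue for Cre-negative hearts 47 and 50. The epicardium members sum to 571 and 448 CPM in the Cre-positive hearts and 749 and 583 CPM in the Cre-negative hearts. The airway list differs most between the groups, and most of its sum in the Cre-negative hearts is Scgb3a2.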

How the data were processed

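Poly(A) RNA was measured as paired ends of 150 bp in 4 hearts. GRCm38 and the programs STAR, fastp 0.20.0, DESeq and edgeR 3.10 are named by the submitters' processing notes, with no role for each. The counting tool, strand setting and annotation were not given in the sources used here. Per gene, the authors deposited CPM, a read signal scaled so that the 4 columns have different totals. The authors deposited log2 fold changes and log2 mean CPM, an F score and a p-value with its FDR per gene, per the file headers, from a comparison whose settings are not stated, and these were not used as results. Of the values, 100% were whole multiples of the worth of 1 read, within a tolerance of 0.001, so whole reads were recovered. The smallest row maximum is 2.29 CPM. Symbols stored as dates numbered 20 and were restored by identifier, 14916 identifiers matched GENCODE M21, and CPM per kilobase used merged exons.

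Log2(CPM + 1) values of genes with at least 1 CPM in 2 libraries were compared with limma-trend 3.58.1 (R 4.3.3), with Benjamini-Hochberg adjustment over all genes, genotype as the only term and a threshold of 0.05. Fold changes on this scale understate the change of low genes. The design named edgeR for counts, and the deposited values are normalized, so the form for normalized values was used. With 2 hearts per group a two-sided exact permutation test cannot go below p = 0.333, so none was used. Every library came from its own embryo, per the labels. Scripts were tested on simulated data. Alternatives were other scalings, filters and pseudocounts, edgeR 4.0.16, DESeq2 1.42.0 and leaving out each heart. Some results of the marker and pathway lists are not reported here. The members and lists were chosen with earlier results of these data known. Named genes are all members and, per list, at most 4 called genes of smallest p, plus genes singled out after their values were seen (Pdgfc, Tbx18, the retinoic acid receptors and epithelial markers).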

Additional observations from a re-analysis of the deposited data

How the results depend on the processing

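Of all genes tested, 4750 were called, and the count with a heart left out lay between 571 and 5655, lowest without Cre-negative heart 47 and 669 without Cre-negative heart 50. The lone heart of a group is then assumed to vary like the other group. With a heart left out the members called higher numbered 1 to 4 and those called lower 0 to 16, and the members' median log2 fold change lay between -0.79 and -0.46. The other alternatives called 13 to 18 members lower and 2 to 3 higher. With DESeq2 the calls of Lrrn4, Prrx1, Krt8 and Cthrc1 were lost (DESeq2 adjusted p = 0.0518, 0.0544, 0.0556 and 0.0568). With edgeR that of Clec3b was lost (edgeR adjusted p = 0.0521). Calls over all genes were 55.6% higher, 43.2% when libraries were scaled to their upper quartile, and 44.4% after quantile normalization. Over the members and alternatives, 297 single values kept direction and side of the threshold, 45 lost a call, 17 gained a call and 4 changed sign. The sign changes were those of Dkk3 (-0.65 to 0.033, positive without Cre-positive heart 51), Meox1 (-0.43 to 0.26) and Wt1 (-0.24 to 0.023), both positive without Cre-positive heart 54, and Twist1 (-0.38 to 0.050, positive without Cre-negative heart 50). The cause was not tested. No paired analysis was possible because the embryo numbers are not shared between the groups. The fewest reads of any member in a heart were 17, for Clec3b, and counting error limits such values.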

Other observations

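Among the members, the hearts of a group differed from each other by role, but other genes of the same cells did not keep this split. Of the 13 fibroblast members, 11 were lower in Cre-positive heart 51 than in Cre-positive heart 54, and of the 16 epicardial members 3 were. Their summed levels were 1542 and 1634 CPM in hearts 51 and 54 for the fibroblast members, and 571 and 448 CPM for the epicardial members. Vim alone held 991 and 1010 CPM of the fibroblast sums, and Ddr2 went the other way, with 206 and 129 CPM. Of the epicardial members, 13 of 16 were also higher in Cre-negative heart 47 than in Cre-negative heart 50, against 8 of 13 fibroblast members. Of the 9 other epicardial genes, 7 were lower in heart 51 than in heart 54. So were 13 of the 16 other fibroblast genes and 9 of the 10 cardiomyocyte markers. In heart 47, 14 of the 16 other fibroblast genes and 7 of the 9 other epicardial genes were higher than in heart 50. The shares over all genes were not counted. These are counts within 1 pair of hearts and no test was made.

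The row 1190002N15Rik, which RefSeq lists as a synonym of Dipk2a, had 89.1 and 130 CPM in Cre-positive hearts 51 and 54, against 88.5 and 93.9 CPM in Cre-negative hearts 47 and 50. It did not pass the limma test (log2 fold change 0.24, SE 0.18, adjusted p = 0.337).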
